A study of Mus musculus with 8 samples.

Results

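The mitochondrial ribosomal protein genes are the nuclear genes that encode the proteins of the ribosome inside mitochondria. Genes were taken as members when the mouse symbol of their Ensembl identifier was Mrpl or Mrps followed by a number and, in a few cases, a letter. This gave 78 of the 22337 genes in the table, 49 with an Mrpl name (large subunit) and 29 with an Mrps name (small subunit). The rule itself uses symbols and no measured value. All 78 members passed the filter on low values and were among the 12536 genes tested.

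The mitochondrial ribosome makes only the proteins that mitochondrial DNA encodes, which are core subunits of the respiratory chain and of ATP synthase. Its RNA comes from mitochondrial DNA, whereas its proteins are made in the cytosol from nuclear genes and imported. Some of these proteins have counterparts in the bacterial ribosome and others are specific to mitochondria. Neurons depend heavily on respiration to supply ATP for ion pumping and synaptic transmission.

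Male C57BL/6 mice had received either morphine, an opioid, or saline, and RNA was measured in their nucleus accumbens, the reward-related region at the base of the striatum. There were 4 saline and 4 morphine libraries, and the series compares the transcriptome after chronic morphine with that after saline. The sources used here do not give age, dose, schedule or time of dissection. The labels do not say that replicates were separate animals. P-values therefore reflect how much these libraries vary, and that variation may be technical. Values are FPKM, fragment counts divided by transcript length and by the library's mapped fragments, which allows levels to be compared between genes of different length. A change is the difference of mean log2(FPKM + 1), morphine minus saline, given with its standard error (SE) and tested with limma over all tested genes, with the p-value adjusted by the Benjamini-Hochberg method. A gene was counted as changed when the adjusted p was under 0.05.

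The libraries differed in ways that bear on what follows. Deposited FPKM values summed to between 480004 and 540104 per library, with saline replicate 1 the highest, and the read depth is unknown. The 23 listed markers of striatal projection neurons were detected in all 8 libraries, and their summed FPKM was 1476.9 to 6950.6 in saline and 551.6 to 679.6 in morphine libraries, with saline replicate 3 the highest. Of these markers 13 were lower with morphine in the limma test. The summed markers of cortical glutamatergic neurons were 110.3 to 346.8 FPKM in saline and 373.4 to 444.5 FPKM in morphine libraries. Summed astrocyte markers were 2247.7 to 2941.2 against 1561.9 to 1939.1 FPKM, oligodendrocyte markers 3274.1 to 3728.1 against 2053.6 to 3271.7 FPKM, endothelial markers 217.1 to 237.8 against 157.4 to 175.8 FPKM, and microglial markers 503.6 to 712.1 against 529.0 to 580.1 FPKM. No listed marker of any of these cell types was at 0 in any library. Saline replicate 1 also stood apart from the other saline libraries in the member genes, as described beside the results it touches.

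The members were expressed at moderate to high level in every library. Their mean FPKM over the 8 libraries ran from 6.20 to 131.5 with a median of 36.1, against a median of 10.8 over all tested genes. Of the 78 members, 4 were under 10 FPKM, 50 were between 10 and 50, 20 between 50 and 100, and 4 above 100. The median level was 39.7 FPKM in the large subunit and 32.8 FPKM in the small subunit.

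The highest level was that of Mrpl42, a large-subunit protein specific to mitochondria. It measured 163.5, 114.4, 108.5 and 118.4 FPKM in saline replicates 1 to 4 and 135.8, 160.5, 114.0 and 137.2 FPKM in morphine replicates 1 to 4. Mrps12, whose bacterial counterpart lies at the decoding site, and Mrpl30 and Mrps21, both counterparts of bacterial ribosomal proteins, came next by the mean over the 8 libraries, at 112, 110 and 104 FPKM. Their saline means were 99.1 ± 23.3, 104 ± 16.4 and 96.7 ± 27.9 FPKM (SD, n = 4). These saline means lie within each other's spread. At the other end stood Mrpl1, at 6.78, 5.34, 5.00 and 6.76 FPKM in saline and 6.58, 6.39, 6.21 and 6.52 FPKM in morphine libraries, and Mrpl47, at 6.62 ± 1.27 FPKM in saline. Every library had both far below Mrpl42, although all 3 products belong to the large subunit. Among Mrps genes the lowest was Mrps30, with 7.06, 6.67, 10.04 and 8.64 FPKM in saline and 9.45, 10.33, 7.63 and 8.79 FPKM in morphine libraries. Mrps30 carries a small-subunit name, but structures of the mammalian ribosome place its product in the large subunit.

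**Figure D1:**
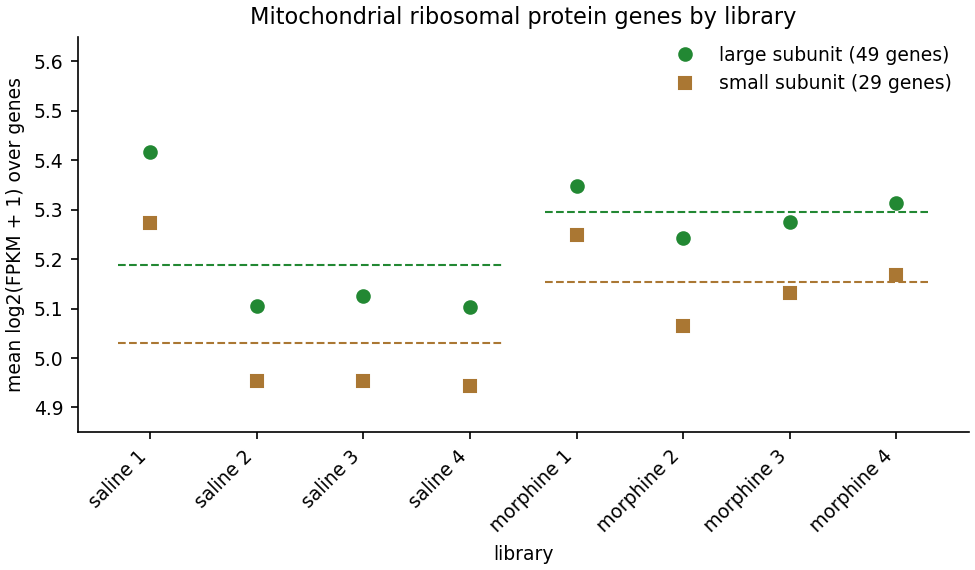
Mean log2(FPKM + 1) of the large-subunit and small-subunit genes in each of the 8 libraries, 1 point per library. Saline replicate 1 lies above the other 3 saline libraries for both subunits, at 5.42 for the large and 5.27 for the small subunit, and the morphine libraries lie between these values and those of the other saline libraries.

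With morphine, no mitochondrial ribosomal protein gene passed the test, but 61 of the 78 lay above 0. Over all tested genes 2.52% passed (130 higher, 1.04%, and 186 lower, 1.48%) and 52% lay above 0. The members' median log2 change was 0.13, against 0.012 over all tested genes, and single members ran from −0.31 to 0.47. A stricter filter at FPKM 5 kept all 78 members and 8937 genes. Over these genes the median change was 0.045 and 57.4% lay above 0, nearer to the members. At an unadjusted p under 0.05, 6 members were higher and 1 lower, together 8.97% of the members. Over all tested genes the figure was 20.1%, made up of 10% higher and 10.1% lower. The smallest adjusted p was 0.0804, for Mrps6. The 95% interval of the change lay within 1 log2 unit of 0 for all 78 members. The intervals run from −0.68 to 0.77 at their outer ends. In such bulk libraries fewer cells of a type and less RNA per cell cannot be told apart.

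The groups of libraries overlapped for nearly all members. Only Mrps6 had every morphine library above every saline library, and only Mrpl3 had every morphine library below. Over all tested genes 6.56% did not overlap in the higher and 6.1% in the lower direction.

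**Figure D2:**
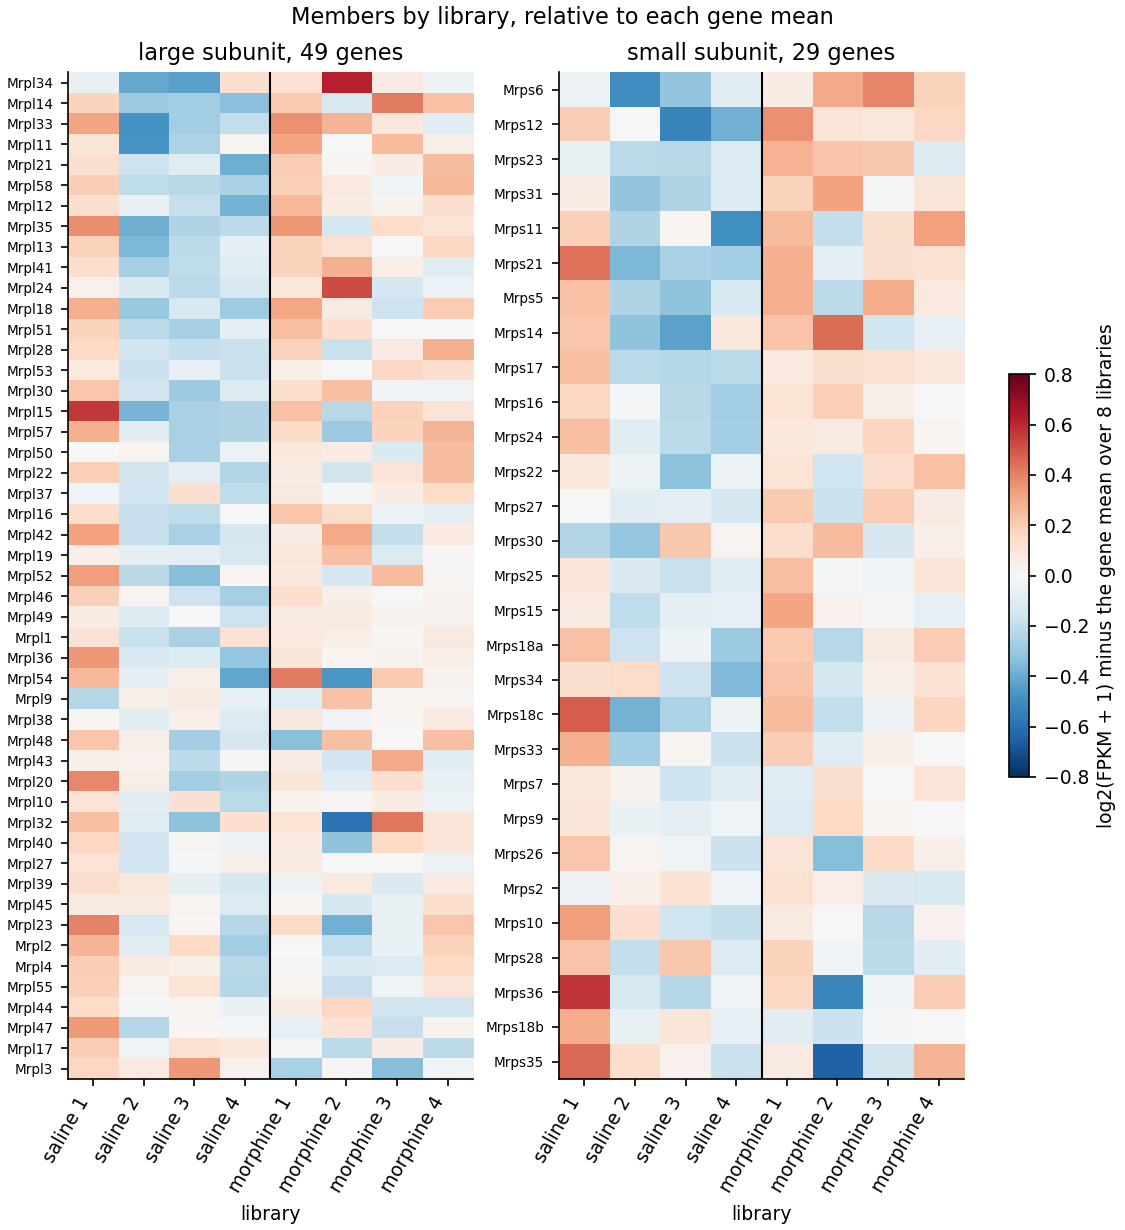
Each cell is log2(FPKM + 1) of one member in one library minus that gene's mean over the 8 libraries, with genes ordered from the highest to the lowest change within each subunit. The first column of each panel, saline replicate 1, is red for most genes where saline replicates 2 to 4 are blue.

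The size of the members' median change moved with 1 saline library and with the striatal markers. The mean log2 level of the members was 5.36 in saline replicate 1 and 5.05, 5.06 and 5.04 in saline replicates 2 to 4, while the morphine libraries stood at 5.31, 5.18, 5.22 and 5.26. On this scale saline replicate 1 lay above all morphine libraries, and the other 3 saline libraries below all of them. Saline replicate 1 also had the highest summed FPKM over all genes, 540104 against 480004 to 501628 in the others. As a share of that sum the members held 0.735% in saline replicate 1 and 0.621, 0.644 and 0.624% in saline replicates 2 to 4. The morphine libraries held 0.754, 0.710, 0.708 and 0.729%, so by share saline replicate 1 lay within their range. Without saline replicate 1 the median change was 0.19 and 70 of 78 members lay above 0, against 0.0052 and 50.7% over all tested genes. Then 24 members were higher and 1 lower at an unadjusted p under 0.05, which is 32.1% of the members against 21.7% of all tested genes, and the groups did not overlap for 23 members in the higher direction (29.5%, against 10.4% of all tested genes). None passed the adjusted limma test in that setting either, where 0.598% of all tested genes did. The members' smallest adjusted p there was 0.0791. Saline replicate 1 was the highest saline library in most members, so leaving it out raises their changes by construction. With any other single library left out, 1 to 4 members were higher and 0 or 1 lower at an unadjusted p under 0.05. With the mean level of the striatal markers as a covariate the members' median change was 0.028, with 43 members above 0 and 35 below. Over all tested genes the median was then 0.0063, with 50.8% above 0. The mean log2 level of these markers was 4.81 to 7.08 in saline and 3.16 to 3.67 in morphine libraries, without overlap. The covariate thus goes with treatment, and their effects cannot be separated, here and wherever it is used below. The part of tissue composition in the members' shift was not tested.

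FPKM is a share, and the share taken by mitochondrial transcripts moved with treatment. Genes of the mitochondrial genome held 9.09 to 12.6% of all FPKM in saline and 6.09 to 7.94% in morphine libraries. With these genes removed and the other values rescaled, the members' median change was 0.082 and 55 lay above 0. Over all tested genes the median then moved down as well, from 0.012 to −0.028, with 45.7% above 0. After quantile normalization the members' median was 0.080, also with 55 above 0. Over all tested genes it was 0.019, with 53.2% above 0. The member median stayed above 0 in all settings tried, between 0.028 and 0.19.

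The large and small subunits had similar median changes. In the large subunit 39 of 49 genes lay above 0 with a median change of 0.11, and in the small subunit 22 of 29 with a median of 0.14. The difference of these medians, large minus small, was −0.038. The large-subunit genes exceeded the small-subunit genes in mean log2 level by 0.14, 0.15, 0.17 and 0.16 in saline replicates 1 to 4 and by 0.099, 0.18, 0.14 and 0.15 in morphine replicates 1 to 4. The morphine values enclose the saline values. The mean of this per-library difference was 0.157 ± 0.0121 in saline and 0.141 ± 0.0320 in morphine libraries (SD, n = 4 each), a gap smaller than the pooled SD of 0.0242. In saline replicate 1, which stood apart in level, this difference was like that of the other saline libraries. Grouping by structure, with Mrps30 and Mrps18a counted as large and Mrps36 left out, gave medians of 0.12 over 51 large and 0.15 over 26 small genes. With the striatal markers as a covariate the medians were 0.032 and −0.015, and their difference was 0.047.

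**Figure D3:**
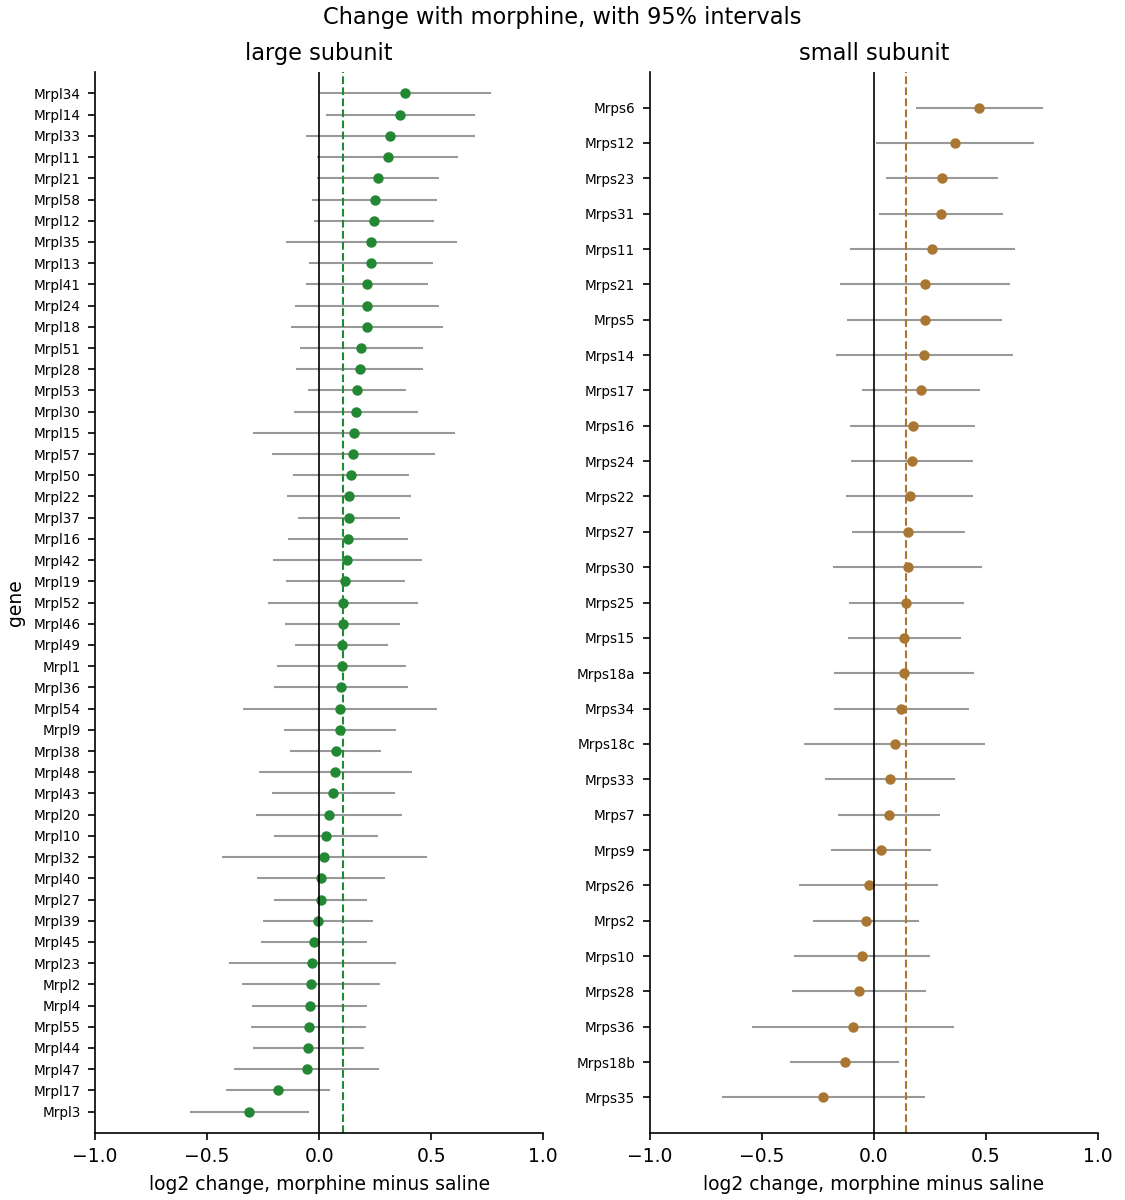
Log2 change (morphine minus saline) of each large-subunit and small-subunit gene with its 95% interval from limma; the dashed line is the subunit's median. Most intervals cross 0, and the medians, 0.11 for the large and 0.14 for the small subunit, lie close together.

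The medians differed little with the origin of the proteins. Here subunits were grouped by structure, with Mrps18a and Mrps30 counted as large and Mrps36 left out. Mrps18a and Mrps18b were counted as specific to mitochondria and Mrps18c as the bacterial counterpart. Of the large-subunit genes with a counterpart in bacterial ribosomes 23 of 30 lay above 0 (median 0.12). Of those specific to mitochondria it was 18 of 21 (median 0.11). In the small subunit the figures were 13 of 16 (median 0.17) and 7 of 10 (median 0.13). The 3 stalk genes Mrpl10, Mrpl11 and Mrpl12, whose products form the side of the large subunit that recruits translation factors, lay above 0 with a median of 0.25. Of the 5 genes around the exit tunnel and the membrane anchor, Mrpl22, Mrpl23, Mrpl24, Mrpl45 and Mrpl47, 2 lay above 0, with a median of −0.025. These small groups were not tested against each other.

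Mrps6 had the largest change among the members. It encodes a small-subunit protein with a bacterial counterpart and lies on chromosome 16, chr16:92058270-92112227 on the plus strand of GRCm38 (Ensembl ENSMUSG00000039680). The stretch before its start, chr16:92058086-92058269 on the plus strand (RefSeq, GRCm38.p6), covers the bases from 250 to 67 before the RefSeq start. It is shown because Mrps6 is the member closest to the threshold, and it is all in lower case because none of the motifs searched, which are given with the promoters, was found there:

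Mrps6: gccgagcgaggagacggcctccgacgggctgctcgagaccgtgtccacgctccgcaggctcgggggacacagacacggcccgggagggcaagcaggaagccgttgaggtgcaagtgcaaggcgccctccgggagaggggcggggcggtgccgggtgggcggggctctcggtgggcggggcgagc

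Mrps6 measured 41.6, 30.1, 34.3 and 40.4 FPKM in saline replicates 1 to 4 and 44.8, 53.2, 56.6 and 48.8 FPKM in morphine replicates 1 to 4. All 4 morphine libraries lay above all 4 saline libraries. The means were 36.6 ± 5.39 and 50.9 ± 5.17 FPKM (SD, n = 4 each), a log2 change of 0.47 ± 0.13 (SE, 95% interval 0.19 to 0.75, limma adjusted p = 0.0804). The change was positive in every setting tried, from 0.36 to 0.53. The Slc5a3 gene, which encodes a myo-inositol transporter, and the protein-coding gene Gm49711 overlap Mrps6 on the same strand. Fragments of one of these genes could therefore have been counted for another. Slc5a3, chosen after its values were seen, measured 3.57, 4.46, 5.35 and 6.36 FPKM in saline and 7.26, 5.27, 6.94 and 5.93 FPKM in morphine libraries, a log2 change of 0.32 ± 0.17 (limma adjusted p = 0.318).

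Of the other small-subunit genes, 3 had an unadjusted p under 0.05 in limma, all higher with morphine. Together with Mrps6 these were 4 of 29, or 13.8%. Over all tested genes the share was 20.1%, with 10% in the higher direction. Mrps12 (chr7:28739641-28741820, minus strand, GRCm38) measured 126, 110, 75.8 and 84.2 FPKM in saline and 143, 118, 117 and 124 FPKM in morphine libraries. Saline replicate 1 lay above 3 of the morphine libraries, and the other saline libraries lay below all of them. Its log2 change was 0.36 ± 0.16 (limma adjusted p = 0.238), and with the striatal markers as a covariate it was −0.078. Mrps23 (chr11:88204388-88211507, plus strand), a mitochondria-specific subunit, measured 27.6, 24.6, 24.5 and 26.6 FPKM in saline and 35.04, 33.9, 33.5 and 26.6 FPKM in morphine libraries. Morphine replicate 4 was at the level of saline and the other 3 morphine libraries were above it, a log2 change of 0.30 ± 0.11 (limma adjusted p = 0.170). Mrps31, also specific to mitochondria, had 14.1, 10.6, 11.2 and 12.4 FPKM in saline and 15.4, 17.1, 13.4 and 14.5 FPKM in morphine libraries, a log2 change of 0.30 ± 0.13 (limma adjusted p = 0.217).

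Mrps21 was among the genes with the widest gap between saline replicate 1 and the rest. It measured 138, 79.2, 85.0 and 84.4 FPKM in saline and 124, 96.5, 112 and 111 FPKM in morphine libraries. The 4 morphine values lie between saline replicate 1 and the other saline libraries. Its log2 change was 0.23 ± 0.17 over all libraries (limma adjusted p = 0.495) and 0.41 without saline replicate 1 (adjusted p = 0.0860). Mrps33 and Mrps25, both mitochondria-specific, had log2 changes of 0.071 ± 0.13 and 0.14 ± 0.12. That of Mrps33 was −0.0048 after quantile normalization, −0.0081 without saline replicate 2 and 0.18 without saline replicate 1.

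The lowest changes in the small subunit were those of Mrps35, Mrps18b, Mrps36 and Mrps28, and none passed. Mrps35, a mitochondria-specific subunit, measured 15.4, 12.3, 11.3 and 9.60 FPKM in saline and 11.6, 6.66, 9.84 and 13.5 FPKM in morphine libraries, a log2 change of −0.23 ± 0.20. Without saline replicate 1 it was −0.11, without morphine replicate 2 −0.048 and without morphine replicate 4 −0.35. Mrps36, now known mainly as a subunit of the 2-oxoglutarate dehydrogenase complex of the citric acid cycle, measured 77.7, 47.5, 44.2 and 50.9 FPKM in saline and 58.5, 35.8, 50.8 and 59.9 FPKM in morphine libraries, a log2 change of −0.094 ± 0.20. Without saline replicate 1 it was 0.080, without morphine replicate 2 0.066, and with the striatal covariate −0.42. Mrps28 had a log2 change of −0.068 ± 0.14, which was 0.22 with the striatal covariate.

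The 3 Mrps18 genes are paralogs of a single bacterial gene, and their products sit at separate places. Mrps18c is taken as the counterpart in the small subunit, Mrps18b is a second small-subunit protein and Mrps18a belongs to the large subunit. Mrps18a measured 98.8, 74.8, 81.5 and 68.0 FPKM in saline and 97.1, 71.9, 88.2 and 96.8 FPKM in morphine libraries, a log2 change of 0.13 ± 0.14. Mrps18b measured 43.0, 33.4, 37.4 and 33.3 FPKM in saline and 32.9, 30.9, 34.7 and 34.9 FPKM in morphine libraries, a log2 change of −0.13 ± 0.11. Mrps18c measured 76.8, 41.7, 45.7 and 53.0 FPKM in saline and 65.1, 47.4, 53.1 and 61.5 FPKM in morphine libraries, a log2 change of 0.092 ± 0.18. Mrps18a was the highest and Mrps18b the lowest of the 3 in every library, and the groups overlapped for each of them. Without saline replicate 1 the changes of Mrps18a, Mrps18b and Mrps18c were 0.23, −0.055 and 0.27. The Mrps18c change was −0.018 without saline replicate 2 and −0.11 with the striatal covariate, and over the settings tried Mrps18a ran from 0.044 to 0.23.

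In the large subunit Mrpl3 had the lowest change of all members. Its product is the counterpart of a bacterial protein that reaches toward the peptidyl transferase centre, and the gene lies at chr9:105053239-105079888 on the plus strand of GRCm38 (Ensembl ENSMUSG00000032563). The stretch before its start, chr9:105053018-105053238 on the plus strand (RefSeq, GRCm38.p6), covers the bases from 250 to 30 before the RefSeq start. The ETS-type motif, given with the promoters, was also found for Mrpl3, outside the stretch shown. The stretch is shown because Mrpl3 was the member whose morphine libraries all lay below saline. Capitals mark the CCAAT box, here as its reverse complement:

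Mrpl3: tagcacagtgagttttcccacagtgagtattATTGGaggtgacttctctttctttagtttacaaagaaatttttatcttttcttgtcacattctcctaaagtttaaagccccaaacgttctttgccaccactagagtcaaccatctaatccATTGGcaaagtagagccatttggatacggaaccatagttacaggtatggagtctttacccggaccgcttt

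Mrpl3 measured 32.1, 30.1, 36.7 and 29.3 FPKM in saline replicates 1 to 4 and 23.7, 28.8, 22.4 and 27.9 FPKM in morphine replicates 1 to 4. The highest morphine library lay just below the lowest saline library. The means were 32.1 ± 3.30 and 25.7 ± 3.14 FPKM (SD, n = 4 each), a log2 change of −0.31 ± 0.12 (SE, 95% interval −0.58 to −0.047, limma adjusted p = 0.182). With the striatal markers as a covariate the change was −0.078 (limma adjusted p = 0.941). Mrpl17, also a counterpart of a bacterial large-subunit protein, had 70.0, 59.2, 66.2 and 64.7 FPKM in saline and 60.4, 52.3, 63.6 and 52.5 FPKM in morphine libraries, a log2 change of −0.18 ± 0.10 with overlapping groups. The next lowest were Mrpl47, at −0.056 ± 0.15, and Mrpl44, which has a ribonuclease III-like fold, at −0.048 ± 0.11. These were 0.048 and −0.0074 when saline replicate 1 was left out.

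The large-subunit genes with the highest changes were Mrpl34, Mrpl14, Mrpl33 and Mrpl11, all with bacterial counterparts. Mrpl34 measured 38.3, 29.9, 29.3 and 43.8 FPKM in saline and 43.4, 61.9, 41.9 and 38.8 FPKM in morphine libraries. Morphine replicate 2 was the highest of the 8 and saline replicate 4 lay among the morphine values, giving a log2 change of 0.38 ± 0.17 (limma adjusted p = 0.248). It was 0.24 without morphine replicate 2 and 0.14 with the striatal covariate. Mrpl14, whose product binds an assembly factor that keeps the subunits apart, measured 52.6, 37.8, 38.1 and 36.5 FPKM in saline and 53.8, 42.3, 62.1 and 54.7 FPKM in morphine libraries. Saline replicate 1 lay within the morphine range and the other saline libraries below it, a log2 change of 0.36 ± 0.15 (limma adjusted p = 0.213). Mrpl33 measured 96.5, 55.1, 63.5 and 67.3 FPKM in saline and 100.0, 93.4, 81.8 and 72.5 FPKM in morphine libraries, a log2 change of 0.32 ± 0.17 (limma adjusted p = 0.328). Without saline replicate 1 the changes of Mrpl14 and Mrpl33 were both 0.48, with adjusted p of 0.0937 and 0.0970.

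Mrpl11 and Mrpl12 belong to the stalk, and Mrpl12 is also known to bind the mitochondrial RNA polymerase. Mrpl11 measured 37.9, 25.2, 29.5 and 35.9 FPKM in saline and 44.2, 35.3, 42.3 and 36.6 FPKM in morphine libraries, a log2 change of 0.31 ± 0.14 (limma adjusted p = 0.263). Mrpl12 had 63.7 ± 9.50 FPKM in saline and 75.2 ± 5.47 FPKM in morphine libraries (SD, n = 4 each), a log2 change of 0.25 ± 0.12 (limma adjusted p = 0.288). Mrpl58, a peptidyl-tRNA hydrolase that can rescue stalled ribosomes as well as being a subunit, measured 50.4, 37.8, 37.3 and 36.3 FPKM in saline and 50.1, 46.2, 42.7 and 52.7 FPKM in morphine libraries. Again saline replicate 1 lay with the morphine libraries, and the log2 change was 0.25 ± 0.13 (limma adjusted p = 0.307). Mrpl45, which anchors the ribosome at the inner membrane, measured 18.4, 18.5, 17.8 and 16.2 FPKM in saline and 17.7, 15.8, 16.8 and 19.4 FPKM in morphine libraries. Its log2 change was −0.025 ± 0.11, with a 95% interval of −0.26 to 0.21, and 0.018 without morphine replicate 2. The abundant Mrpl42, Mrpl30 and Mrpl20 had log2 changes of 0.13 ± 0.15, 0.16 ± 0.13 and 0.043 ± 0.15, and the scarce Mrpl1 and Mrpl19 of 0.10 ± 0.13 and 0.12 ± 0.12. The changes of Mrpl42, Mrpl30 and Mrpl20 were 0.26, 0.27 and 0.18 without saline replicate 1, and with the striatal covariate −0.095, −0.065 and −0.31. The change of Mrpl20 was also below 0 after quantile normalization (−0.036), with mitochondrial genes removed (−0.0023) and without saline replicate 3 (−0.042) or 4 (−0.031). That of Mrpl1 was −0.12 with the striatal covariate.

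Saline replicate 1 held the highest of the 4 saline values in 67 of the 78 members, against 25.7% of all tested genes. This was so in 41 of 49 large-subunit and 26 of 29 small-subunit genes. Its excess over the mean of the other saline libraries had a median of 0.33 on the log2 scale in the members and −0.017 over all tested genes. The excess went with transcript length. Over all tested genes with a median protein-coding transcript of at most 600 bases the median excess was 0.24, falling to −0.23 above 5000 bases. The members are short, with a median of 1052 bases against 2185 over all tested genes. The members also exceeded the genes of their own length in all 7 classes, of which 3 hold 5 or fewer members. The median excess was 0.37 for the 36 members of at most 1000 bases against 0.18 for all genes of that length, and 0.23 for the 42 longer members. Morphine minus saline changes varied little with length over all tested genes, with class medians of −0.0055 to 0.058, whereas the members' class medians were 0.11 to 0.21.

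**Figure D4:**
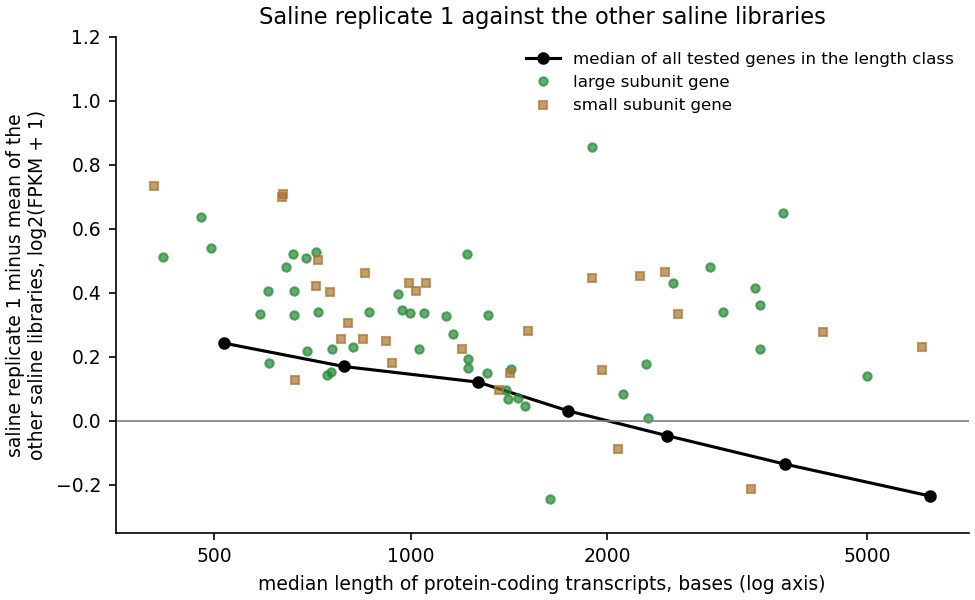
Horizontal axis, median length of a gene's protein-coding transcripts (log axis); vertical axis, log2(FPKM + 1) in saline replicate 1 minus the mean of the other 3 saline libraries. Points are members and the black line joins the medians of all tested genes in 7 length classes, which fall from 0.24 to −0.23; most members lie above the line.

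The other proteins of the same ribosome also lay mostly above 0. Of 5 subunits with other names (Dap3, Ptcd3, Chchd1, Aurkaip1 and Gadd45gip1) none passed the test, 1 was higher at an unadjusted p under 0.05, 4 lay above 0 and the median change was 0.25. Dap3, a GTP-binding small-subunit protein, measured 62.4, 51.6, 55.6 and 54.5 FPKM in saline and 65.8, 64.7, 68.3 and 61.0 FPKM in morphine libraries. Saline replicate 1 was the only saline library within the morphine range, and the log2 change was 0.21 ± 0.096 (limma adjusted p = 0.248). Gadd45gip1, a large-subunit protein near the exit tunnel, had a log2 change of 0.42 ± 0.20 (limma adjusted p = 0.273).

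Of 26 genes for assembly of the ribosome and modification of its RNA none passed, 2 were higher at an unadjusted p under 0.05, 17 lay above 0 and the median change was 0.082. Rpusd4, a pseudouridine synthase that acts on the large mitochondrial ribosomal RNA, measured 3.35, 4.00, 3.83 and 3.57 FPKM in saline and 5.31, 6.71, 4.77 and 5.49 FPKM in morphine libraries. All morphine libraries lay above all saline libraries, a log2 change of 0.48 ± 0.13 (limma adjusted p = 0.0832). Dhx30, an RNA helicase of mitochondrial RNA granules, measured 38.8, 35.5, 39.0 and 38.2 FPKM in saline and 47.7, 39.8, 46.8 and 44.6 FPKM in morphine libraries, a log2 change of 0.23 ± 0.097 (limma adjusted p = 0.216). For both genes the saline libraries lay close together, saline replicate 1 included.

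The 12 translation factors were split, with 6 above and 6 below 0, a median of 0.045 and none past the threshold. At an unadjusted p under 0.05, 2 were higher and 1 lower. Mtif3, an initiation factor, measured 12.3, 13.0, 11.2 and 15.0 FPKM in saline and 15.3, 15.6, 18.4 and 15.3 FPKM in morphine libraries, without overlap, and a log2 change of 0.31 ± 0.12 (limma adjusted p = 0.189). Mtfmt, which formylates the initiator methionyl-tRNA, had a log2 change of 0.37 ± 0.15 (limma adjusted p = 0.210). Guf1, a homologue of a bacterial elongation factor that was chosen after its values were seen, had −0.71 ± 0.29 (limma adjusted p = 0.211).

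The 17 mitochondrial aminoacyl-tRNA synthetases, which charge tRNAs with amino acids, lay mostly below 0. None passed, 2 were lower at an unadjusted p under 0.05, 5 lay above and 12 below 0, and the median change was −0.096. Pars2, for proline, measured 6.06, 5.84, 6.53 and 5.66 FPKM in saline and 4.45, 4.74, 4.65 and 5.32 FPKM in morphine libraries, without overlap, and a log2 change of −0.28 ± 0.12 (limma adjusted p = 0.216). Ears2, for glutamate, had −0.34 ± 0.15 (limma adjusted p = 0.224). The difference between the synthetases and the ribosomal proteins was not tested.

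Among 11 genes for mitochondrial transcription and its regulators none passed, 1 was higher at an unadjusted p under 0.05, 9 lay above 0 and the median change was 0.051. Tfam, which packages mitochondrial DNA and starts its transcription, measured 11.0, 9.07, 10.9 and 9.63 FPKM in saline and 12.8, 17.4, 10.2 and 13.7 FPKM in morphine libraries, a log2 change of 0.36 ± 0.16 (limma adjusted p = 0.224). Nrf1, a transcription factor of nuclear genes for mitochondrial proteins, had 0.27 ± 0.13 (limma adjusted p = 0.283). Of the 3 genes for insertion into the inner membrane none passed, and none had an unadjusted p under 0.05. Oxa1l, the insertase that receives new chains at the exit tunnel, had −0.20 ± 0.14 and Letm1 0.17 ± 0.14.

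The messenger RNAs that this ribosome translates lay on the other side of 0. All 13 listed messenger RNAs of the mitochondrial genome lay below 0 with a median log2 change of −0.59, and 11 of them had an unadjusted p under 0.05. Only mt-Co1, a core subunit of cytochrome c oxidase, passed the test. It measured 6593, 8014, 5941 and 7947 FPKM in saline and 4149, 4086, 4396 and 4110 FPKM in morphine libraries, and it fell by 0.76 ± 0.15 on the log2 scale (limma adjusted p = 0.0381). The morphine libraries lay close together and all below the lowest saline library. The call was lost in 11 of the alternative settings, including each that left out 1 library other than saline replicate 3, with adjusted p between 0.0193 and 0.684 over the alternatives. After quantile normalization the change was −0.092. That method gives the same rank the same value in every library, so it can hold the most abundant genes, mt-Co1 among them, near 0. Next came mt-Nd4, a subunit of complex I, with 2526, 2853, 2055 and 2959 FPKM in saline and 1726, 1459, 1784 and 1628 FPKM in morphine libraries, a log2 change of −0.65 ± 0.15 (limma adjusted p = 0.0507). It passed in 4 of the alternatives. The mitochondrial ribosomal RNAs mt-Rnr1 and mt-Rnr2 were not analysed here.

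**Figure D5:**
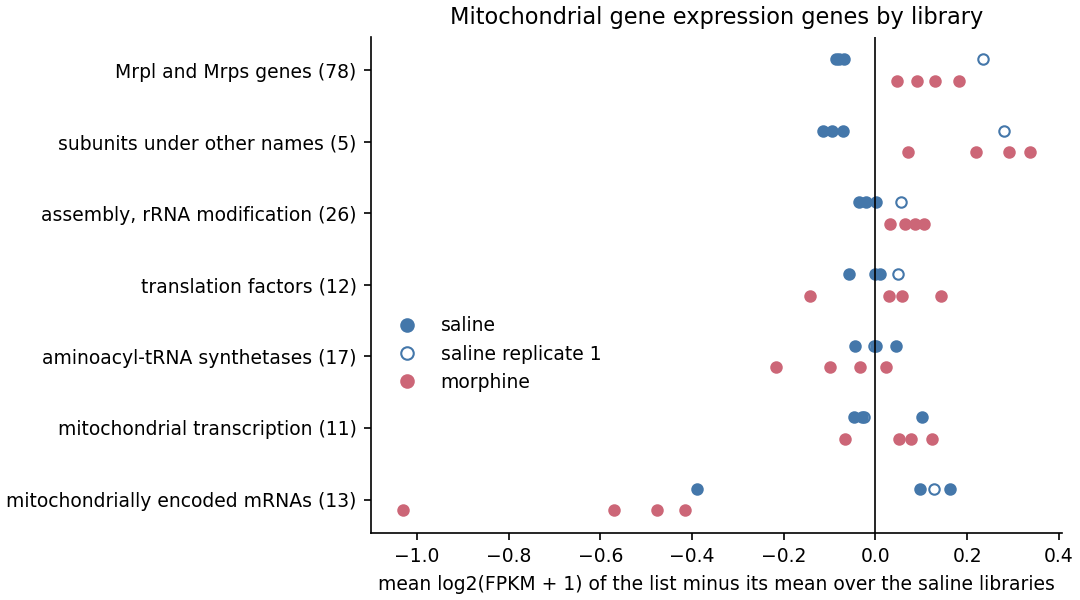
Mean log2(FPKM + 1) of each list of genes for mitochondrial translation in each library, minus the list's mean over the saline libraries, 1 point per library. The mitochondrially encoded messenger RNAs lie lower in the morphine than in the saline libraries, while the ribosomal protein genes do not. Before the subtraction these messenger RNAs stood at 10.245 to 10.862 in morphine libraries. Saline replicate 3 lay just above that range, at 10.888, and the other saline libraries at 11.374 to 11.438.

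Many member genes share their start region or their sequence span with another gene. For 33 members a protein-coding gene on the opposite strand starts within 1000 bases, and in 1 case, Mrps11 and Mrpl46, both partners are members. Their log2 changes were 0.26 ± 0.17 and 0.11 ± 0.12. Of the partners that are not members 25 were tested; 14 lay above and 11 below 0 with a median of 0.066, while the members of these pairs had a median of 0.10 with 21 above 0, and no partner passed the test. The following pairs were chosen after their values were seen. Mrps18b and Ppp1r10, a regulatory subunit of protein phosphatase, start 45 bases apart and had changes of −0.13 ± 0.11 and 0.43 ± 0.17. Mrps18c and Helq, a DNA helicase, start 29 bases apart and had 0.092 ± 0.18 and −0.39 ± 0.20.

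Within the span of 25 members lies part of another protein-coding gene of the table, on the opposite strand for 22 of them. The labels' protocol names no strand marking, and the strand setting is not given. Whether reads from genes on opposite strands were told apart there is therefore unknown, and reads could be shared between overlapping genes. The annotation also holds 5 pseudogenes named after members, none of them with a row in the table, and reads could be shared with them.

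Promoters were read from RefSeq (GRCm38.p6) for 69 of the 78 members, in 75 windows from 250 bases before to 50 after a start. The motifs were searched on both strands. The ETS-type motif CCGGAAGT was in 12 windows, or 16% of them, against 7.54% of the windows of tested genes. The YY1-type motif AAGATGGC was also in 12 windows (16%), against 4.24%. The palindromic nuclear respiratory factor motif was in 3 windows (4%) against 1.97%, the cAMP response element TGACGTCA in 2 (2.67%) against 3%, the TATA motif TATAAA in 5 (6.67%) against 7.06% and the CCAAT box in 30 (40%) against 37.4%. The median GC content was 58.7% in member windows and 60.7% in those of tested genes. A match is a description of the letters and not evidence of binding. Members with and without the ETS-type motif had median log2 changes of 0.099 and 0.13, and for the YY1-type motif both medians were 0.13.

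As examples of shared start regions, the stretches between Mrps12 and the seryl-tRNA synthetase gene Sars2 and between Mrps27 and Ptcd2, a pentatricopeptide repeat gene, are given here. The first is chr7:28741822-28741991 on the minus strand and the second chr13:99344706-99344785 on the plus strand (RefSeq, GRCm38.p6), each ending at the base before the member's start. The YY1-type motif was also found for both Mrps12 and Mrps27, outside the stretches shown. Capitals mark CCAAT boxes in the first and the ETS-type motif, as its reverse complement, in the second:

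Mrps12: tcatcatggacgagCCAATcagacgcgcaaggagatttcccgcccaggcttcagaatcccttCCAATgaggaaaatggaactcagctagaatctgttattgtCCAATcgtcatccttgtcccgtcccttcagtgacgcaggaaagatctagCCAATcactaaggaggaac

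Mrps27: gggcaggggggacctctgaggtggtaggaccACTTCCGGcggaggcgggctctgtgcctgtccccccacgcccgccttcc

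Mrps12 and Sars2 start 172 bases apart on opposite strands, and the Mrps12 stretch holds 4 CCAAT boxes. Mrps12 had a log2 change of 0.36 ± 0.16 and Sars2 of −0.11 ± 0.14. Mrps27, a mitochondria-specific small-subunit gene, and Ptcd2 start 81 bases apart and had 0.15 ± 0.11 and 0.16 ± 0.10. Neither pair was tested for a difference.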

How the data were processed

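The authors deposited 1 table of FPKM values, 1 column per library per the file headers. The tools named in the submitters' processing notes are RSEM, StringTie 1.3.1, HISAT2, Bowtie2 2.2.8 and fastp 0.18.0, with the build mm10. The annotation release, the strand setting and what each tool did were not given in the sources used here. Full-length cDNA primed with oligo-dT was amplified by PCR, per the labels' protocols. Depth is unknown, so no counting interval is given.

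Symbols, coordinates and lengths came from GENCODE M21 (GRCm38), which matched 22232 of 22337 identifiers. Between 0.546 and 1.22% of values were identical between any 2 libraries. Genes that reached an FPKM of 1 in 4 or more libraries were tested as log2(FPKM + 1) with limma 3.58.1 in R 4.3.3, without a block, after tests on simulated data. This scale understates changes of low genes. Alternatives changed the pseudocount, filter, normalization, covariate, block and libraries.

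Members and lists were chosen with earlier results of these data known. Named genes were, per subunit, the 4 highest and 4 lowest changes, the 3 highest and 3 lowest levels, 10 genes of known role, and in each pathway list the genes past the threshold and the 2 with the smallest p.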

Additional observations from a re-analysis of the deposited data

Results flagged for a closer look

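In the groups of 4 libraries, the highest or lowest library was compared with its nearest neighbour relative to the whole range, over 96 groups. Chance marks about 1 in 20 such groups, and 7 were marked. Saline replicate 1 was far above the other saline libraries in the mean log2 level of all members (5.364 against 5.044 to 5.061), of the large subunit (5.418 against 5.104 to 5.125) and of the small subunit (5.274 against 4.943 to 4.954). It was also far above them in Mrpl14 (52.64 against 36.51 to 38.13 FPKM), Mrpl58 (50.35 against 36.32 to 37.80 FPKM) and Mrps21 (138.43 against 79.21 to 84.95 FPKM). In the translation initiation factor gene Mtif3, morphine replicate 3 stood at 18.43 FPKM, above 15.26 to 15.62 FPKM in the other morphine libraries. Run over all 78 members, the same comparison marked saline replicate 1 in 6 genes and saline replicate 3 in 1 gene.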

How the results depend on the processing

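No member passed the threshold in any of the 16 alternative settings, and the members' median log2 change was above 0 in all of them (0.028 to 0.19). With the striatal covariate the small-subunit median was −0.015 and the large minus small difference 0.047. Leaving out 1 library moved that difference between −0.062 and −0.0059. The count of genes passing over the whole table moved more: 316 became 17 with no filter on low values, 3 with the striatal covariate, and 0 to 450 when 1 library was left out (limma found 0 when saline replicate 2, or morphine replicate 3 or 4, was left out, with 2005, 1953 and 2136 genes at an unadjusted p under 0.05, and found 75 without saline replicate 1, and 102 and 70 without morphine replicates 1 and 2). With mitochondrial genes removed, 77 were higher and 211 lower, against 130 and 186. After each gene's group mean was subtracted, same-numbered libraries correlated at 0.052, 0.037, −0.059 and −0.20. They were therefore not treated as pairs, although such values cannot show that the libraries were unpaired. With a replicate block 5 genes passed, none of them a member. Without depth, no counting error can be given.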
